A study of Homo sapiens with 6 samples.

Results

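The 48 genes described here encode the core machinery of the DNA damage response, that is the factors of homologous recombination, end resection, non-homologous end joining, the Fanconi anaemia pathway, checkpoint signalling, ubiquitin signalling at breaks, single-strand break repair and mismatch repair. They were matched by symbol in the deposited gene table, and all 48 were found among the 74852 genes listed, of which 23187 carry a symbol. The 48 genes were sorted by textbook role into 10 classes. Expression was measured in MDA-MB-231, an established human triple-negative breast cancer (TNBC) cell line with a mesenchymal phenotype, by sequencing of polyA-selected RNA. The cells received either a pool of non-targeting control siRNAs (si-CTRL) or pooled siRNAs that target NEK2 (si-NEK2), a mitotic kinase of the centrosome, with 3 libraries in each group. All cells were transfected in 2 rounds, and the sample labels place the harvest 24 h after the second round. A transient pool lowers a transcript without removing it, and the libraries come from 1 cell line.

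Double-strand breaks are first bound by the MRE11-RAD50-NBN (MRN) complex, which recruits the kinase ATM, or by the Ku dimer, which channels the ends to ligation. In homologous recombination the ends are resected, BRCA1, PALB2 and BRCA2 load a recombinase on the single strand, and the paralogs of that recombinase assist it. The Fanconi anaemia core complex ubiquitinates FANCD2 and FANCI at crosslinked DNA, while ATR and CHEK1 restrain the cell cycle when replication stalls, and many genes of these pathways are transcribed mostly from late G1 to G2.

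Each value is a normalized count, the number of reads on a gene divided by the size factor of its library, and the libraries held between 52625492 and 87454509 reads on genes. In the si-NEK2 libraries NEK2 kept 10.0% of its si-CTRL mean, with a log2 fold change of -3.32. VIM, CD44, CAV1 and AXL, markers of the mesenchymal TNBC lines, had at least 29767 normalized counts in each library, and the summed level of 7 markers of blood, endothelium and fibroblasts stayed between 28.8 and 48.3. EGFR, the fifth of the mesenchymal markers, had between 2208 and 3602. CD44 and EGFR fell and CAV1 rose (log2 fold changes -0.76, -0.52 and 0.69), while VIM (-0.18) and AXL (-0.20) did not pass. Of 6 luminal markers, ESR1, PGR and CDH1 had at most 15.2 normalized counts, and GATA3, FOXA1 and KRT19 at least 287, 786 and 1415. Their summed level was 2616 to 2926 in si-CTRL and 3998 to 4615 in si-NEK2 libraries. FOXA1 and KRT19 rose (1.16 and 0.55) and GATA3 did not pass (-0.39), and the part of these markers in the results was not tested. One library stood apart over all genes: si-CTRL replicate 1 differed from si-CTRL replicates 2 and 3 with a chi-square per degree of freedom of 75.9 and 79.8, against 12.7 between those last ones. It was the highest si-CTRL library for 17 of the 48 genes, the same number as si-CTRL replicate 3, and the lowest for 24. Among the si-NEK2 libraries, replicate 1 was the lowest for 31 of the 48 genes and the highest for 2, and replicate 3 was the highest for 26. The labels do not say that the replicates were separate cultures, so that p-values measure the spread between these libraries. In bulk RNA, fewer cells in the cycle phase that uses a gene and less RNA of it per cell cannot be told apart.

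All but 1 of the 48 genes differed by less than 1.5 times between the groups, and most of those that passed the test were higher in si-NEK2 cells with the deposited size factors, but not with equal totals (11 higher and 11 lower). Regulated genes were those with an unadjusted p up to 0.05 whose level differed by 1.5 times or more, and 1 of the 48 genes was among them, XRCC3, which was lower, that is 2.08% of them beside 22.5% of the 18717 genes tested (8.23% higher and 14.3% lower). At an adjusted p of at most 0.05 without a limit on the fold change (limma, Benjamini-Hochberg adjustment over all genes tested), 29 of the 48 genes passed, 60.4% beside 43.1% of all genes. Of these, 22 were higher (45.8% beside 21.8% of all genes) and 7 were lower (14.6% beside 21.3%). The words rose and fell denote genes that passed the adjusted p. All si-NEK2 libraries lay on the same side of all si-CTRL libraries for 32 genes, 66.7% beside 55.0% of all genes, 24 of them higher (28.2% of all genes) and 8 lower (26.9% of all genes). Of the 48 genes, 19 overlap another expressed row of the table, which carries no strand, and for 11 of them that row holds at least 10% of their level. Among the 11374 genes within the range of levels of these 48, 17.6% were regulated and 51.9% passed the adjusted p.

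**Figure D1:**
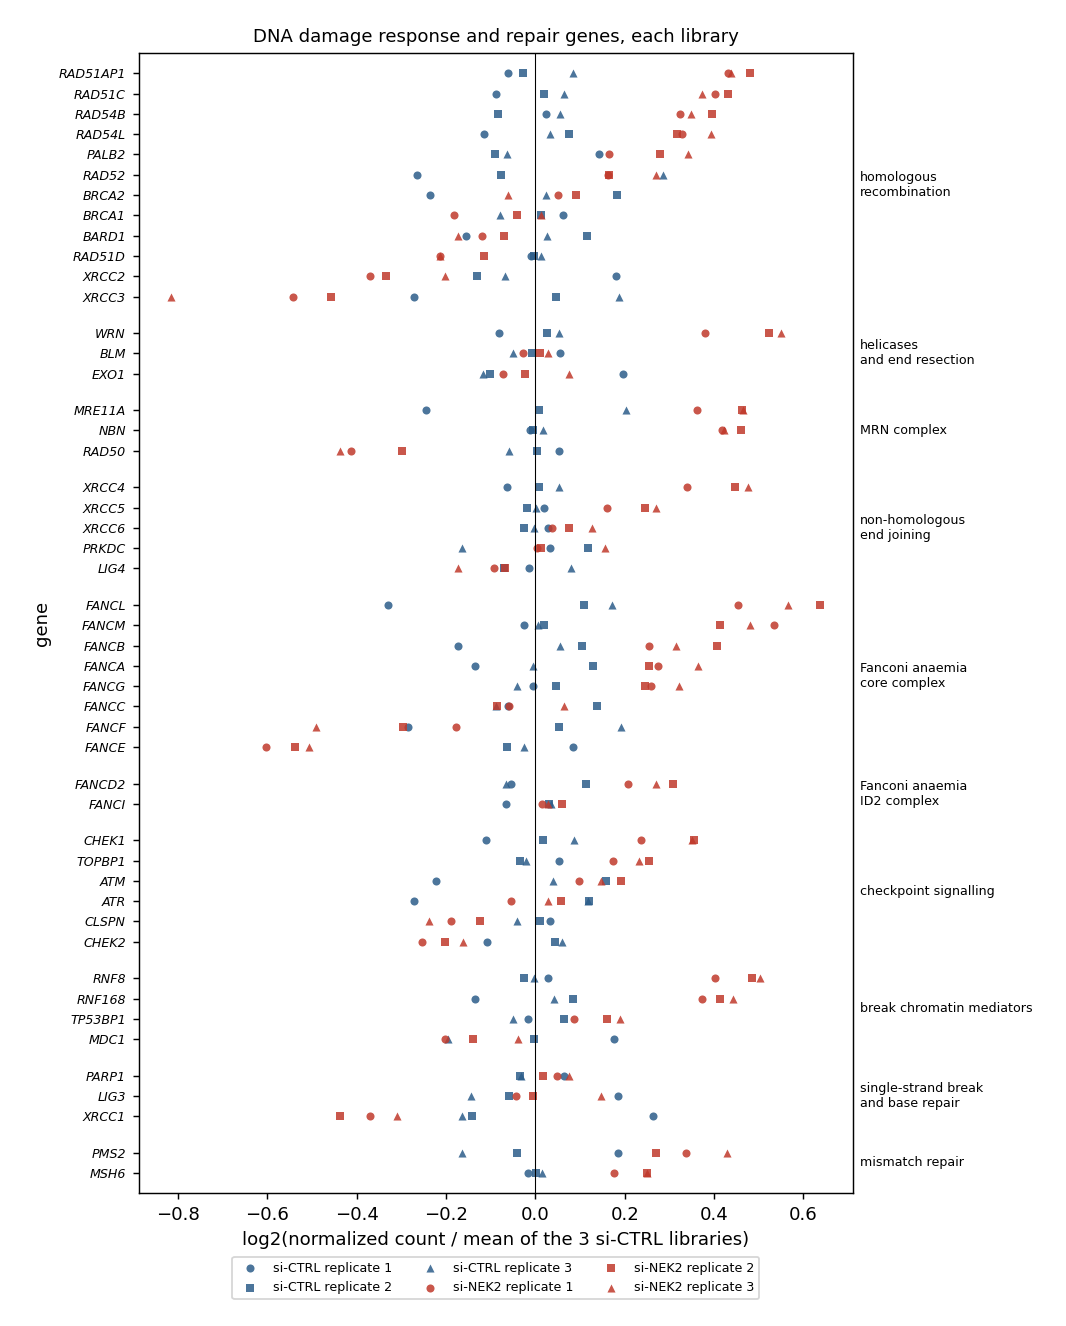
Normalized counts of each of the 48 genes in each of the 6 libraries, as log2 of the ratio to the mean of the 3 si-CTRL libraries, grouped by role on the vertical axis. The si-NEK2 libraries (red) lay clear of the si-CTRL libraries (blue) in 32 genes, 24 of them to the right and 8 to the left.

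The log2 fold changes ran from -0.59 (XRCC3) to 0.57 (FANCL), with a median of 0.15 beside 0.01 over all genes tested, and 34 of the 48, or 70.8%, were above 0 beside 51.0% of all genes. Among the 11374 genes within the range of levels of these 48, the median was 0.07, nearer to that of the 48 genes. The split between higher and lower calls depended on how libraries were scaled. With libraries rescaled to the same total, the median of all genes moved from 0.01 to -0.11, and 22 of the 48 genes passed the adjusted p, 11 higher and 11 lower, in place of 22 and 7. The difference between the median of the 48 genes and that of all genes was 0.14 with either of these scalings and -0.02 with quantile normalization, so that the position of the list relative to other genes depended on the scaling. Quantile normalization left 16 genes higher and 8 lower.

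**Figure D2:**
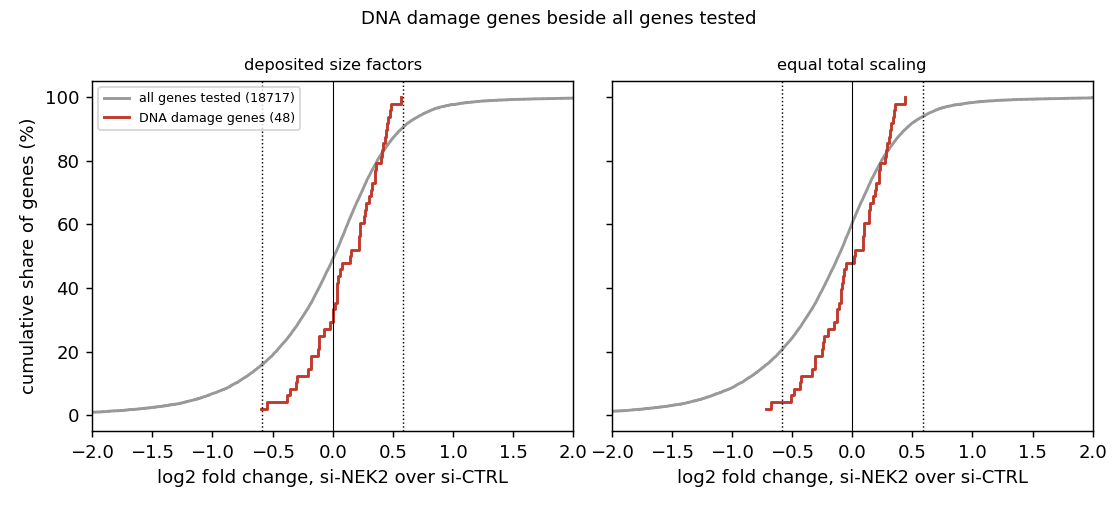
Cumulative share of genes (vertical axis, percent) against log2 fold change (horizontal axis), for all 18717 genes tested (grey) and the 48 DNA damage genes (red), with the deposited size factors on the left and with equal totals on the right; dotted lines mark a fold change of 1.5. The median of the red curve is 0.15 beside 0.01 for the grey one on the left, and 0.022 beside -0.11 on the right.

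Homologous recombination, with 12 genes, held both the strongest decrease and several increases. Of the 12 genes, 5 rose (41.7% beside 21.8% of all genes) and 3 fell (25.0% beside 21.3%). XRCC3, a paralog of the recombinase that acts in its loading complexes (chr14:104163946-104181823, hg19), had 679.9, 847 and 934 normalized counts in the si-CTRL libraries and 563, 597 and 466 in the si-NEK2 libraries. Each si-NEK2 library was below each si-CTRL library, and si-CTRL replicate 1 was the control nearest to them. The mean went from 821 ± 129 to 542 ± 68.0 (SD, n = 3 each), a log2 fold change of -0.59 (SE 0.14, adjusted p = 0.00892; limma, Benjamini-Hochberg adjustment). XRCC3 was past the adjusted p without each library in turn, but its log2 fold change was -0.49 without si-NEK2 replicate 3, -0.49 without si-CTRL replicate 3 and -0.56 without si-CTRL replicate 2, which is under a fold change of 1.5 in each case. The row of APOPT1 // KLC1 overlaps 13768 bases of this gene and holds 1609.7 percent of its level, with a log2 fold change of -0.05, and the deposited table carries no strand.

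RAD51C, a paralog that joins XRCC3 in one complex and XRCC2 and RAD51D in another (chr17:56769930-56811702), moved the other way. It had 2023, 2179 and 2249 normalized counts in the si-CTRL libraries and 2841, 2900.1 and 2785 in the si-NEK2 libraries, with no overlap, and rose with a log2 fold change of 0.40 (SE 0.07). XRCC2 had 6434, 5192 and 5418 against 4397, 4502 and 4941 normalized counts, and fell with a log2 fold change of -0.30 (SE 0.09). RAD51D fell with a log2 fold change of -0.18 (SE 0.06), but its row is shared with RFFL and its reads are uncertain. The ratio of RAD51C to XRCC3 normalized counts, in which a scaling by 1 factor per library cancels, was 2.65 ± 0.29 in si-CTRL and 5.29 ± 0.60 in si-NEK2 cells (SD, n = 3 each). The promoters of this opposite pair are shown because one carries repeated CCAAT letters and the other carries none of the letters searched. They are from RefSeq (GRCh38.p14), XRCC3 at chr14:103715402-103715701 on the minus strand and RAD51C at chr17:58692323-58692622 on the plus strand, each from 250 bases before to 50 bases after the start of the gene, with matches in capitals.
XRCC3: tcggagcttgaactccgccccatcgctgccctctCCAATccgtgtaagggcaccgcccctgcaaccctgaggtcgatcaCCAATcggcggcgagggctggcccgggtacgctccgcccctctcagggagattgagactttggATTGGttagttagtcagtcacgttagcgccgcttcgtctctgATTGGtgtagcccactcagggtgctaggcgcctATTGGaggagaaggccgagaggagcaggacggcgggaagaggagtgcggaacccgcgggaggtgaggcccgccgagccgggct
RAD51C: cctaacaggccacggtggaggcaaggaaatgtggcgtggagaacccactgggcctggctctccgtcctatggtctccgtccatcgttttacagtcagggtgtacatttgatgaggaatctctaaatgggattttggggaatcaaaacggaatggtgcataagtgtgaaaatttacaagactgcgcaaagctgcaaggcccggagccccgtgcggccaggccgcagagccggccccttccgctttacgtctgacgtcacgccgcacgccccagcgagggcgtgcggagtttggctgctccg
The XRCC3 window holds 5 matches to CCAAT, 216 and 171 bases before the start on the strand of the gene and 108, 66 and 33 bases before it on the other strand. None of the letters searched, E2F, CHR or CCAAT, is in the RAD51C window.

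RAD51AP1, RAD54L and RAD54B, which act with the recombinase, were 3 of the 5 recombination genes that rose. RAD51AP1, which stimulates strand pairing (chr12:4647950-4669214), had 4703, 4813 and 5200.1 normalized counts in si-CTRL and 6615, 6846 and 6642 in si-NEK2 libraries. This was the class's most marked increase, with a log2 fold change of 0.45 (SE 0.06, adjusted p = 0.000717 in limma, Benjamini-Hochberg). RAD54L, an ATP-driven motor that remodels the recombination filament, rose from 3922 ± 269 to 4985 ± 144 normalized counts (SD, n = 3 each), a log2 fold change of 0.35 (SE 0.07). Its paralog RAD54B rose by a similar amount, 0.36 (SE 0.07), in a row that it shares with FSBP. RAD54L overlaps 81 bases of the row of LRRC41, which has 110.2 percent of its level and a log2 fold change of 0.13.

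The BRCA genes were among those that did not pass. BRCA1, a ubiquitin ligase that promotes resection, had 5920.5, 5719 and 5370.3 normalized counts in si-CTRL and 4998, 5509 and 5717 in si-NEK2 libraries, and the groups overlapped (log2 fold change -0.07, 95% confidence interval -0.24 to 0.10). BARD1, its obligate partner, was at -0.12 (-0.31 to 0.08), and passed with an adjusted p of 0.0241 when si-CTRL replicate 1 was left out (limma, Benjamini-Hochberg adjustment). BRCA2, which loads the recombinase, had between 217 and 291 normalized counts in the 6 libraries and a log2 fold change of 0.04 (-0.27 to 0.34), an interval that allows changes of either direction. PALB2, which links BRCA1 to BRCA2, rose from 6725 ± 610.4 to 8073 ± 496 (SD, n = 3 each), a log2 fold change of 0.27 (SE 0.08), and si-CTRL replicate 1 with 7427 came close to the lowest si-NEK2 library with 7539. RAD52, a single-strand annealing protein, had groups that overlapped and a log2 fold change of 0.22 (-0.11 to 0.55).

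The MRN complex, the first sensor of double-strand breaks, was split. RAD50, the SMC-like ATPase of the complex (chr5:131892032-131980313), had 3846, 3715 and 3555 normalized counts in si-CTRL and 2782, 3012 and 2738 in si-NEK2 libraries. NBN, the adaptor that recruits ATM, had 5620.5, 5653 and 5743 in si-CTRL and 7579, 7800.2 and 7598 in si-NEK2 libraries. MRE11A, the nuclease (chr11:94150466-94227040), had 625, 744 and 852 in si-CTRL and 951, 1020.3 and 1021 in si-NEK2 libraries. For all 3 subunits the groups did not overlap, beside 55.0% of all genes (28.2% higher and 26.9% lower). The si-NEK2 libraries were low for RAD50 and high for NBN and MRE11A. All 3 passed the adjusted p, beside 43.1% of all genes. RAD50 fell with a log2 fold change of -0.38 (SE 0.07, adjusted p = 0.00248), while NBN rose with 0.43 (SE 0.06, adjusted p = 0.000464) and MRE11A with 0.44 (SE 0.12, adjusted p = 0.0146; limma, Benjamini-Hochberg adjustment). The ratio of NBN to RAD50 normalized counts was 1.46, 1.52 and 1.62 in si-CTRL and 2.72, 2.59 and 2.78 in si-NEK2 libraries, that of MRE11A to RAD50 went from 0.201 ± 0.039 to 0.351 ± 0.019 (SD, n = 3 each), and that of MRE11A to NBN was 0.130 in both groups. MRE11A was the least stable of the 3, with an adjusted p of 0.0598 without si-NEK2 replicate 2 (limma, Benjamini-Hochberg adjustment). The row of IL5 // SHROOM1 spans 88282 bases of RAD50, holds 45.0 percent of its level and had a log2 fold change of -0.37. How the authors divided reads between such rows is not given in the sources used here, and the part of this row in the RAD50 value was not tested.

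The promoters of RAD50 and MRE11A are shown as the second pair that moved apart. They are RefSeq windows on GRCh38.p14, RAD50 at chr5:132556727-132557026 on the plus strand and MRE11A at chr11:94493795-94494094 on the minus strand, with capitals on the letters found.
RAD50: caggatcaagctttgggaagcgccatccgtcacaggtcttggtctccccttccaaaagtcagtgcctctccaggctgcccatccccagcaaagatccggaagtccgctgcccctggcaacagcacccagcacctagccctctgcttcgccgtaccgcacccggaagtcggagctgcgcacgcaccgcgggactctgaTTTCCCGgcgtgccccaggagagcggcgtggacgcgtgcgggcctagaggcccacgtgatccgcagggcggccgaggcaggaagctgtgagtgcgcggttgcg
MRE11A: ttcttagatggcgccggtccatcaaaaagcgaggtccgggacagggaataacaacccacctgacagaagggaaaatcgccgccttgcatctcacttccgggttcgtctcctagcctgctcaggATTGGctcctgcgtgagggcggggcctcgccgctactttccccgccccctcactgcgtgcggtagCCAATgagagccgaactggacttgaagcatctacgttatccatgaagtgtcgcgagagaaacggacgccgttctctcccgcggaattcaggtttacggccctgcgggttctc
RAD50 has E2F letters (TTTCCCG) 53 bases before its start, and MRE11A has CCAAT on the strand of the gene 62 bases before its start and on the other strand 127 bases before it.

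Among the helicases and resection factors, WRN differed from its relative. WRN, a RecQ helicase with an exonuclease domain, had 2057, 2218 and 2259 normalized counts in si-CTRL and 2834, 3129 and 3189 in si-NEK2 libraries, and rose with a log2 fold change of 0.49 (SE 0.08, adjusted p = 0.00114 in limma, Benjamini-Hochberg). BLM, the RecQ helicase that dissolves joint molecules, had between 4450.0 and 4788 in the 6 libraries and a log2 fold change near 0 with a 95% confidence interval of -0.14 to 0.15. EXO1, the exonuclease of long-range resection, had overlapping groups and an interval of -0.21 to 0.21. Its highest value, 9464, was that of si-CTRL replicate 1, beside 7704 and 7614 in the other si-CTRL libraries.

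Of the 5 genes of non-homologous end joining, 2 rose and 3 did not pass, so that 40% passed beside 43.1% of all genes. With equal totals XRCC5 did not pass, and LIG4 passed as a decrease at -0.24 on the log2 scale (adjusted p = 0.0283 in limma, Benjamini-Hochberg). XRCC4, the scaffold of the end-joining ligase (chr5:82373228-82649579), had 1316, 1383 and 1425 normalized counts in si-CTRL and 1739, 1873 and 1912 in si-NEK2 libraries, with a log2 fold change of 0.42 (SE 0.08, adjusted p = 0.00217 in limma, Benjamini-Hochberg). LIG4, the ligase bound to that scaffold, had 1697, 1634 and 1813 against 1607, 1637 and 1521, which overlapped at a log2 fold change of -0.11 (95% confidence interval -0.28 to 0.06). The ratio of XRCC4 to LIG4 normalized counts thus went from 0.803 ± 0.038 to 1.16 ± 0.09 (SD, n = 3 each). XRCC5 and XRCC6, the Ku80 and Ku70 subunits of the end-binding dimer, had the highest levels per length of exon. XRCC5 rose from 58733 ± 764 to 68693 ± 2729 normalized counts (SD, n = 3 each), a log2 fold change of 0.23 (SE 0.06) that was 0.10 with equal totals and -0.01 with quantile normalization. XRCC6 had a log2 fold change of 0.08 (-0.05 to 0.21) and PRKDC, the catalytic subunit of DNA-dependent protein kinase, one of 0.06 (-0.14 to 0.26). XRCC4 overlaps 45 bases of the row of TMEM167A, which has 78.1 percent of its level and a log2 fold change of 0.37.

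Of the 8 genes of the Fanconi anaemia core complex, 5 rose (62.5% beside 21.8% of all genes) and 1 fell (12.5% beside 21.3%). Of the 2 genes of its ID2 substrate 1 rose. FANCL, the ubiquitin ligase of the complex (chr2:58386380-58468515), had 735, 997 and 1041 normalized counts in si-CTRL and 1265, 1438 and 1367 in si-NEK2 libraries. It rose with a log2 fold change of 0.57 (SE 0.13, adjusted p = 0.00828 in limma, Benjamini-Hochberg), just under a fold change of 1.5, and passed that limit when replicate 2 (0.63) or 3 (0.66) of si-CTRL or replicate 1 (0.62) of si-NEK2 was left out. Without si-CTRL replicate 1, the lowest library, its log2 fold change was 0.41. The row of VRK2 overlaps 676 bases of FANCL, with 145 percent of its level and a log2 fold change of 0.28. FANCM, the DNA translocase that anchors the complex, had 764, 787 and 779.5 against 1125, 1035 and 1083 normalized counts, and rose with a log2 fold change of 0.48 (SE 0.08).

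FANCE, the core subunit that contacts FANCD2 (chr6:35420127-35434881), had 1249.8, 1128 and 1157 normalized counts in si-CTRL and 776, 812 and 829 in si-NEK2 libraries. The 3 si-NEK2 libraries lay far below the si-CTRL libraries, and the log2 fold change was -0.55 (SE 0.08, adjusted p = 0.000789 in limma, Benjamini-Hochberg). It was -0.61 with upper quartile scaling and -0.68 with equal totals, which made FANCE regulated under these scalings. FANCF, an adaptor in the same part of the complex, had 1377, 1740.5 and 1917 against 1483, 1366 and 1195 normalized counts, and the groups overlapped through si-CTRL replicate 1. Its adjusted p was 0.0897, and 0.00344 without that library, at a log2 fold change of -0.31 and -0.44 respectively (limma, Benjamini-Hochberg adjustment). FANCC, which binds FANCE, did not pass and had a log2 fold change of -0.02 (95% confidence interval -0.22 to 0.18), so that the ratio of FANCC to FANCE normalized counts went from 1.14 ± 0.15 to 1.64 ± 0.07 (SD, n = 3 each).

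The remaining core subunits rose by less. FANCB had a log2 fold change of 0.33 (SE 0.09), FANCA one of 0.30 (SE 0.08) and FANCG one of 0.28 (SE 0.06). For each of them the groups did not overlap, beside 55.0% of all genes. FANCA and FANCG, which bind each other, kept a ratio of 0.599 ± 0.046 in si-CTRL and 0.609 ± 0.007 in si-NEK2 cells (SD, n = 3 each). FANCD2, a subunit of the clamp that the core complex modifies, had 10999.8, 12346 and 10911 normalized counts in si-CTRL and 13189, 14127 and 13765 in si-NEK2 libraries, a log2 fold change of 0.26 (SE 0.07). Its partner FANCI had 13214, 14132 and 14164 against 13981, 14409 and 14113, which overlapped at 0.03 (95% confidence interval -0.10 to 0.17). FANCA, FANCB, FANCG and FANCD2 did not pass with equal totals, at adjusted p-values between 0.0967 and 0.163 (limma, Benjamini-Hochberg adjustment).

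**Figure D3:**
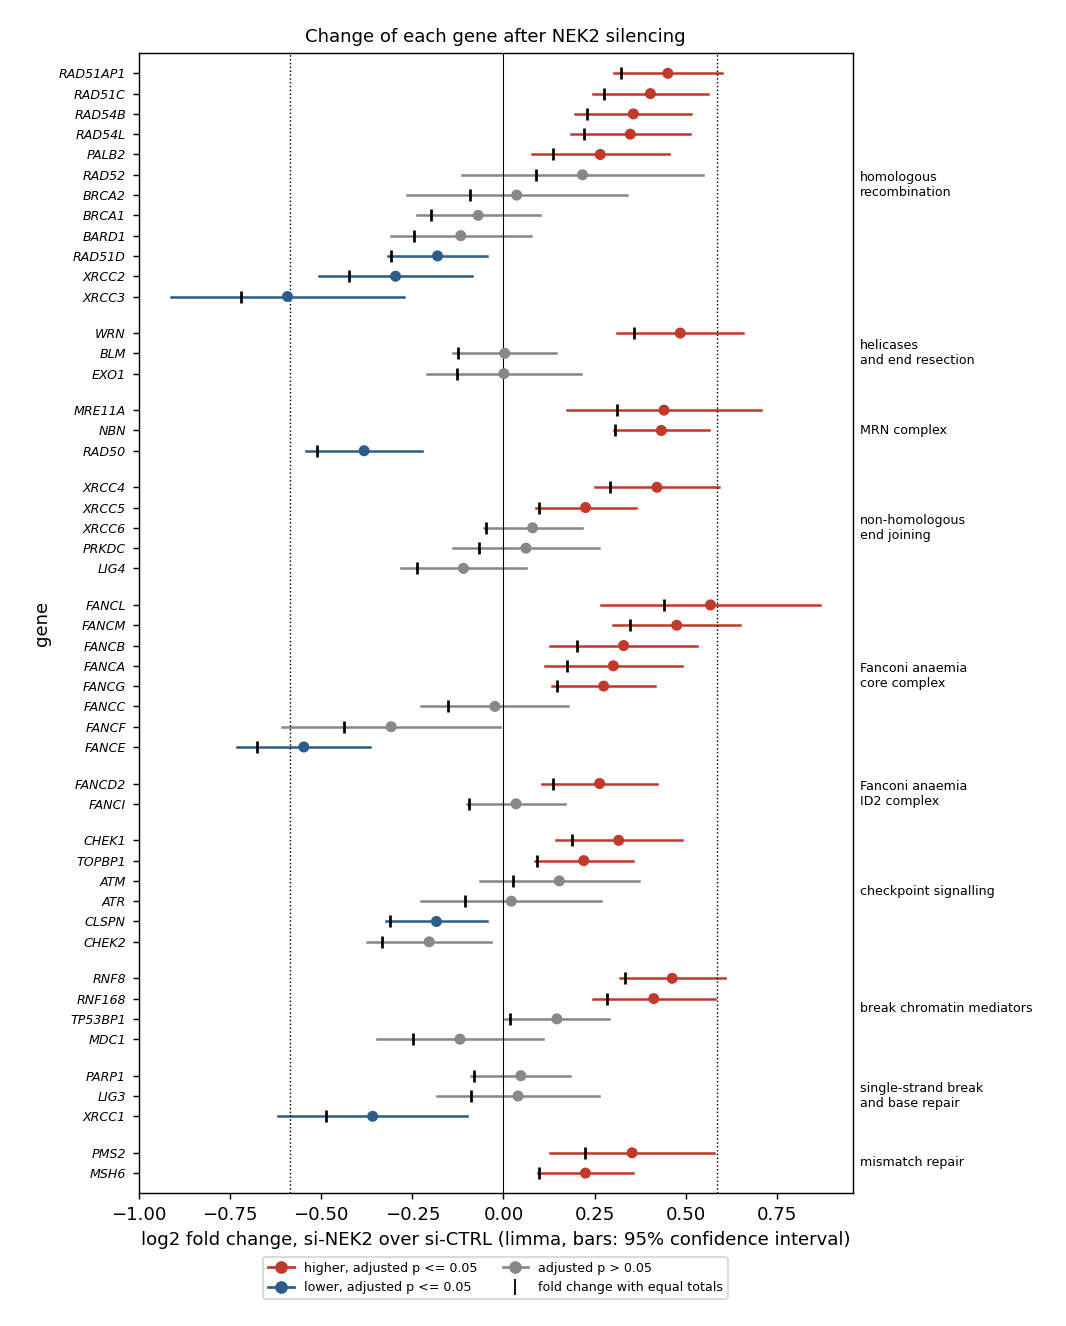
Log2 fold change of si-NEK2 over si-CTRL libraries (horizontal axis; points, limma with bars for the 95% confidence interval; black ticks, the same value with equal totals) for the 48 genes, grouped by role. Red genes rose, blue genes fell and grey genes did not pass the adjusted p; dotted lines mark a fold change of 1.5, which XRCC3 at -0.59 passed with the deposited size factors.

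In checkpoint signalling 2 of the 6 genes rose (33.3% beside 21.8% of all genes) and 1 fell (16.7% beside 21.3%). CHEK1, the effector kinase of ATR, rose from 2731 ± 186 to 3397 ± 155 normalized counts (SD, n = 3 each), a log2 fold change of 0.32 (SE 0.08). TOPBP1, the activator of ATR, rose with 0.22 (SE 0.06), whereas CLSPN, the mediator that presents CHEK1 to ATR, fell with -0.18 (SE 0.06). CLSPN had 11044, 10869 and 10489.6 normalized counts in si-CTRL and 9476, 9904 and 9153 in si-NEK2 libraries, without overlap. The apical kinases did not pass: ATR had a log2 fold change of 0.02 (95% confidence interval -0.22 to 0.27) and ATM one of 0.15 (-0.06 to 0.37), and in both si-CTRL replicate 1 was the lowest library. CHEK2, the effector kinase of ATM, had 2146, 2383 and 2411 against 1939, 2012 and 2069 normalized counts, which did not overlap, at a log2 fold change of -0.20 and an adjusted p of 0.0545 (limma, Benjamini-Hochberg adjustment). Its adjusted p was 0.0434 in edgeR, 0.0345 in DESeq2 and 0.00443 in limma without si-CTRL replicate 1.

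Of the 4 mediators of break chromatin, the ubiquitin ligases RNF8 and RNF168 rose, and TP53BP1 and MDC1 did not pass. Thus 50% passed beside 43.1% of all genes. RNF8, recruited by MDC1 (chr6:37321748-37362519), had 3306, 3188 and 3238 normalized counts in si-CTRL and 4286, 4541 and 4593 in si-NEK2 libraries, a log2 fold change of 0.46 (SE 0.06, adjusted p = 0.000548 in limma, Benjamini-Hochberg). RNF168, which extends the mark on H2A (chr3:196195679-196230639), had 5473, 6374 and 6182 against 7781, 8001 and 8168, a log2 fold change of 0.41 (SE 0.07, adjusted p = 0.00216 in limma, Benjamini-Hochberg). TP53BP1, a reader of marked chromatin that limits resection, had groups that did not overlap but a log2 fold change of only 0.15 (95% confidence interval 0.00 to 0.29). MDC1, the reader of phosphorylated H2AX, had overlapping groups and -0.12 (-0.35 to 0.11).

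The promoters of these ligases are shown because the genes act in sequence and rose by a like amount. They are RefSeq windows on GRCh38.p14, RNF8 at chr6:37353733-37354032 on the plus strand and RNF168 at chr3:196503719-196504018 on the minus strand, with capitals on the letters found.
RNF8: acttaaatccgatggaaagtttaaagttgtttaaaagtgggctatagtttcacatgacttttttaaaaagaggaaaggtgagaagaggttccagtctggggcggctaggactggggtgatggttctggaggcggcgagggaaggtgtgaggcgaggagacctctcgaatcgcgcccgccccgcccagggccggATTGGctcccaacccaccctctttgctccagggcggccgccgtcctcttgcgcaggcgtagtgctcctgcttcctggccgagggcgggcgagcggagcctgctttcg
RNF168: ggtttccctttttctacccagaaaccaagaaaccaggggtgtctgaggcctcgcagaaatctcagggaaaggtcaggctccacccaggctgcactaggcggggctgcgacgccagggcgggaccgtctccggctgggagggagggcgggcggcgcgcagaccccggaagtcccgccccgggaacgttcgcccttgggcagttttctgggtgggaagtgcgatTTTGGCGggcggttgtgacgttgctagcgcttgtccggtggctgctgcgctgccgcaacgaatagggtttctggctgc
The letters found differed between them, since RNF8 has CCAAT on the other strand 57 bases before its start and RNF168 has E2F letters (TTTGGCG) 28 bases before its start.

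RefSeq windows matched 42 of the 48 genes, and 3 kinds of letters were searched on both strands: E2F letters in the form TTTGGCG and in the related forms with the letters TTTCCCG or with the letters TTTCGCG, the cell cycle homology region known as the CHR in the form TTTGAA, and the letters of the CCAAT box. No form contains another. E2F letters were in 33.3% of the 42 windows, beside 11% of 9994 windows of tested genes and 7.28% of all 27305 windows of this length. They were in 5 of the 18 matched genes that rose (27.8%), in 3 of the 7 that fell (42.9%) and in 6 of the 17 that did not pass (35.3%). CCAAT was in 50% of the 42 windows beside 36.2% of those of tested genes, and CHR letters were in 9.52% beside 9.70%. CCAAT was in 11 of the 18 matched genes that rose (61.1%), in 3 of the 7 that fell (42.9%) and in 7 of the 17 that did not pass (41.2%). RAD51C, which rose without CCAAT, and XRCC3, which fell with it, are thus not typical of these shares. CHR letters were in 0 of the 18, 1 of the 7 and 3 of the 17. A match describes the letters of a window and not the binding of a factor.

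Single-strand break and mismatch repair closed the list. XRCC1, the scaffold of single-strand break repair, had 4703, 3552 and 3495 normalized counts in si-CTRL and 3029, 2894 and 3158 in si-NEK2 libraries, and fell with a log2 fold change of -0.36 (SE 0.11). Its highest library was si-CTRL replicate 1, without which the log2 fold change was -0.22 at an adjusted p of 0.00915 (limma, Benjamini-Hochberg adjustment). LIG3, the ligase that XRCC1 carries, had overlapping groups and a log2 fold change of 0.04 (95% confidence interval -0.18 to 0.26), and the ratio of XRCC1 to LIG3 normalized counts went from 1.19 ± 0.07 to 0.906 ± 0.044 (SD, n = 3 each). PARP1, the break sensor that makes poly(ADP-ribose), had a log2 fold change of 0.05 (-0.09 to 0.18). Both mismatch repair genes rose, beside 21.8% of all genes. PMS2, an endonuclease subunit, had a log2 fold change of 0.35 (SE 0.10) and MSH6, a mismatch recognition subunit, one of 0.22 (SE 0.06). MSH6 had 14193, 14359.6 and 14491 normalized counts in si-CTRL and 16208, 17061 and 17052 in si-NEK2 libraries. PMS2 had 2012, 1719 and 1579 against 2236, 2136 and 2385. In both genes the groups did not overlap, beside 55.0% of all genes.

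A ratio of 2 genes within a library does not depend on a scaling by 1 factor per library, though it does on quantile normalization. It was taken for 15 textbook pairs of partners, which were chosen after the values were seen and are therefore described without a test. The largest shifts, on the log2 scale, were 1.00 for RAD51C over XRCC3, 0.82 for MRE11A over RAD50 and 0.82 for NBN over RAD50. RAD51C over XRCC2 shifted by 0.70, XRCC4 over LIG4 by 0.53 and FANCC over FANCE by 0.52. Smaller shifts without overlap were found for XRCC1 over LIG3 (-0.40), FANCB over FANCL (-0.24), FANCD2 over FANCI (0.23) and XRCC5 over XRCC6 (0.15). The groups overlapped for BRCA1 over BARD1, MRE11A over NBN, FANCA over FANCG, FANCC over FANCF and FANCE over FANCF. How often the ratio of other pairs of genes separates the groups was not tested, and 55.0% of single genes did so.

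**Figure D4:**
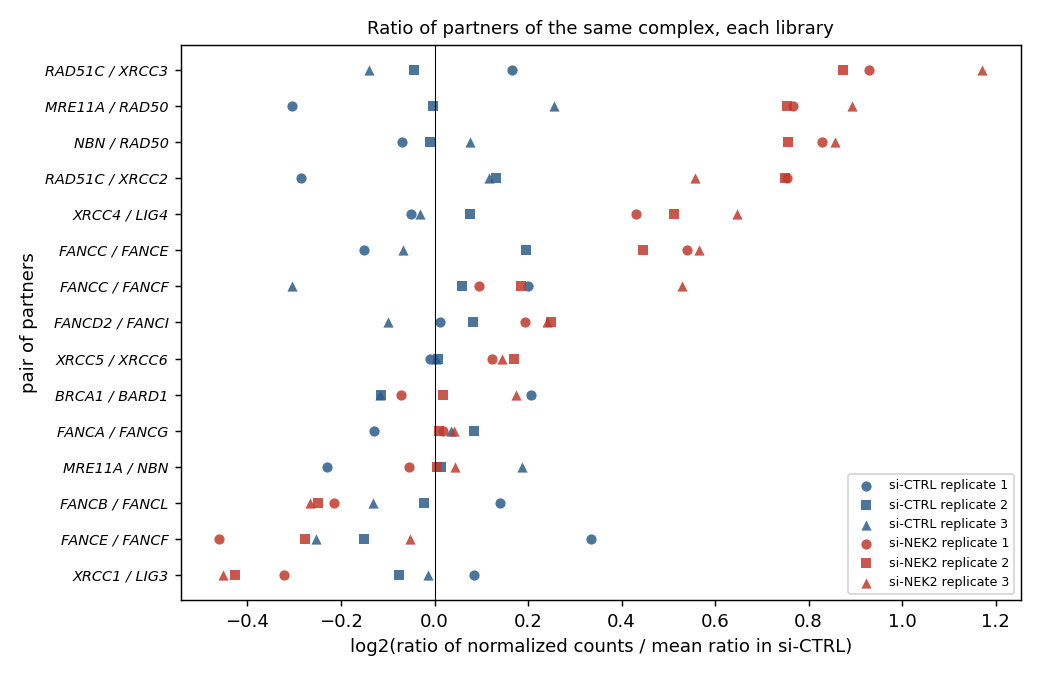
Ratio of the normalized counts of 15 pairs of partners in each library, as log2 of the ratio to the si-CTRL mean (horizontal axis). For RAD51C over XRCC3 the si-NEK2 libraries (red) sit near 1.00 and for NBN over RAD50 near 0.82, apart from the si-CTRL libraries (blue).

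Levels differed far more between the genes than between the groups. Per kilobase of annotated exons (all exons of a gene in GENCODE 29, a newer annotation than the deposited one, for the 46 genes that do not share a row), XRCC6 with 19677 and XRCC5 with 10751 normalized counts in si-CTRL libraries led, followed by TOPBP1 with 2526 and PARP1 with 2376. At the other end were BRCA2 with 20.9, RAD52 with 72.4, FANCM with 91.7, MRE11A with 96.3, FANCC with 105 and XRCC3 with 109. Within the MRN complex NBN with 921 stood above RAD50 with 379, and among the BRCA partners PALB2 with 1417 stood above BRCA1 with 617 and BARD1 with 381. The values per kilobase depend on which exons are annotated for a gene.

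**Figure D5:**
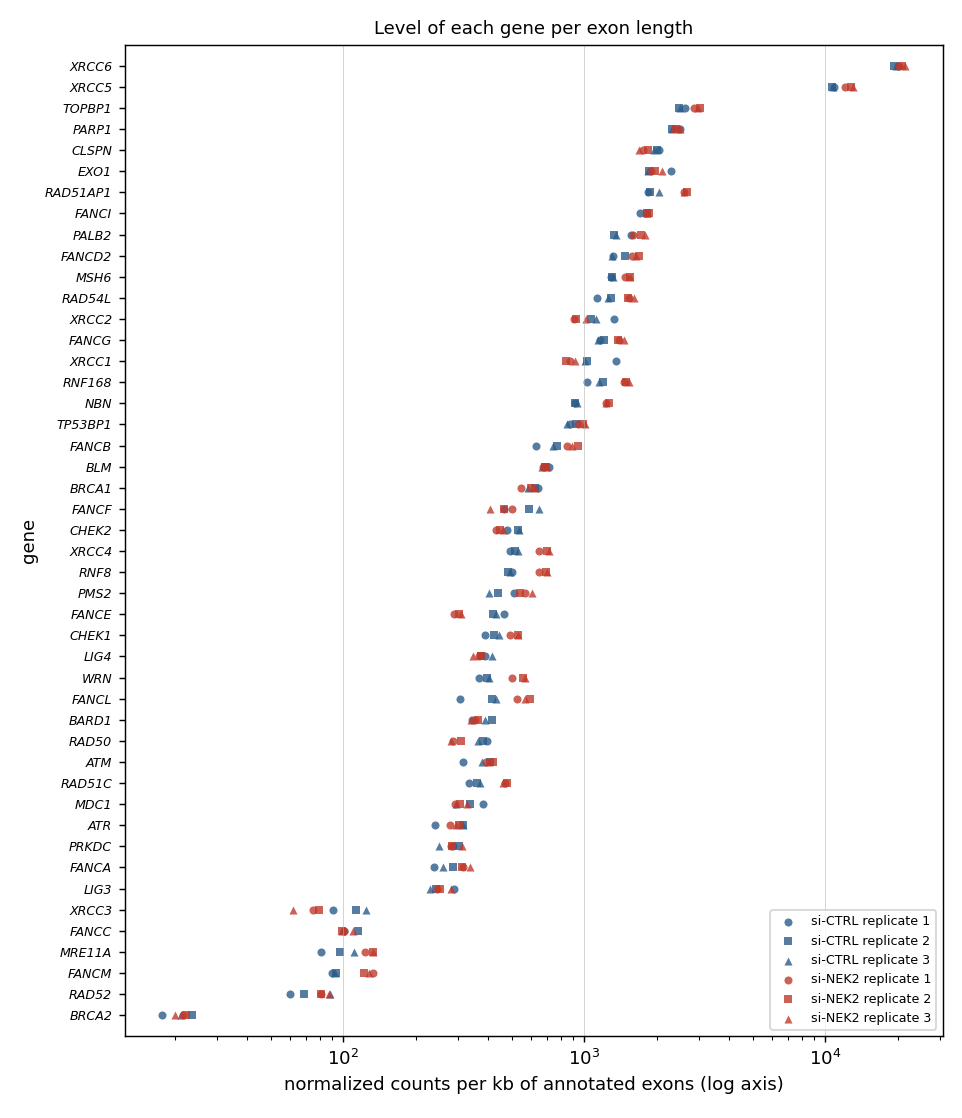
Level of 46 genes in each library, in normalized counts per kilobase of annotated exons (horizontal axis, logarithmic), ordered by the si-CTRL mean. XRCC6 and XRCC5 lie farthest right, at 19677 and 10751, and BRCA2 farthest left, at 20.9, while the si-CTRL (blue) and si-NEK2 (red) libraries of a gene lie close together.

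The calls were unevenly firm. Of the 29 genes that passed the adjusted p, 15 passed it without each of the 6 libraries in turn, and 14 did so under all 17 alternatives that were run on single genes. These 14 were RAD51AP1, RAD51C, RAD54L, RAD54B, WRN, NBN, XRCC4, FANCL, FANCM, RNF8 and RNF168, which were higher, and XRCC3, RAD50 and FANCE, which were lower. Leaving out si-NEK2 replicate 2 lost 12 calls (PALB2, RAD51D, XRCC2, MRE11A, XRCC5, FANCB, FANCD2, CHEK1, TOPBP1, CLSPN, XRCC1 and MSH6), at adjusted p-values from 0.0515 to 0.112. Leaving out si-NEK2 replicate 3 lost 10 (PALB2, RAD51D, XRCC5, FANCA, FANCD2, TOPBP1, CLSPN, XRCC1, MSH6 and PMS2), from 0.0516 to 0.145. Leaving out si-NEK2 replicate 1 lost 6 (RAD51D, XRCC2, FANCA, CLSPN, XRCC1 and PMS2), from 0.0504 to 0.126. Without si-CTRL replicate 3 the calls of PALB2, RAD51D, FANCD2, TOPBP1, CLSPN and PMS2 were lost, from 0.0504 to 0.0935, and without si-CTRL replicate 2 those of PALB2, RAD51D, TOPBP1, CLSPN and PMS2, from 0.0534 to 0.0936. With equal totals the 11 increases of PALB2, MRE11A, XRCC5, FANCA, FANCB, FANCG, FANCD2, CHEK1, TOPBP1, MSH6 and PMS2 did not pass, and BARD1, LIG4, FANCF and CHEK2 passed as decreases. Without si-CTRL replicate 1 no call was lost, and BARD1, FANCF and CHEK2 passed as well (all in limma, Benjamini-Hochberg).

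Other genes of the same pathways gave larger single changes. The counts of regulated genes in this and the following lists stand beside 22.5% of all genes tested (8.23% higher and 14.3% lower). Of 23 other recombination and Fanconi genes 2 were regulated, both higher: RPA1, the large subunit of the single-strand binding complex, with a log2 fold change of 0.69 (SE 0.06), and DNA2, a resection nuclease, with 0.63 (SE 0.07). Of the 23, 9 passed the adjusted p (39.1% beside 43.1% of all genes), 7 higher and 2 lower, and their median of 0.13 was -0.0022 with equal totals. Among 9 other end joining genes, 1 was regulated, APLF, a Ku-binding scaffold, with -0.93 (SE 0.16). Of the 9, 2 rose and 2 fell, so that 44.4% passed beside 43.1% of all genes. Among 19 other checkpoint and break chromatin genes, 3 were regulated upwards and 2 downwards, with a median of 0.28 that was 0.15 with equal totals. Of the 19, 10 passed the adjusted p (52.6% beside 43.1% of all genes), 8 higher and 2 lower. WEE1, the kinase that restrains CDK1, was the highest with 0.90 (SE 0.09), CDC25B, the phosphatase that opposes it, had 0.81 (SE 0.07), and UIMC1 and BRCC3, both subunits of the BRCA1-A complex, had 0.68 (SE 0.07) and -0.86 (SE 0.10).

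Of 15 nucleotide excision repair genes 7 passed the adjusted p (46.7% beside 43.1% of all genes), 2 higher and 5 lower, and their median of -0.09 was -0.22 with equal totals. ERCC1, the partner of the XPF nuclease, went from 5025 ± 474 to 2847 ± 76.1 normalized counts (SD, n = 3 each), with a log2 fold change of -0.82 (SE 0.08). Of 15 other base excision repair genes 4 rose and 3 fell, so that 46.7% passed beside 43.1% of all genes. The 2 regulated ones were the uracil glycosylase UNG with 0.77 (SE 0.13) and the glycosylase NEIL1 with 0.59 (SE 0.13). Of 10 translesion synthesis genes 4 rose and 1 fell, so that 50% passed beside 43.1% of all genes. The gene that fell was REV3L, the catalytic subunit of polymerase zeta, with -0.82 (SE 0.10).

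Of 20 p53 target genes 8 passed the adjusted p (40% beside 43.1% of all genes), 3 higher and 5 lower, and their median of -0.09 was -0.21 with equal totals. CDKN1A, an inhibitor of cyclin-dependent kinases, went from 5831 ± 265 to 1859 ± 18.8 normalized counts (SD, n = 3 each), a log2 fold change of -1.65 (SE 0.07), TNFRSF10B, a death receptor, had -0.70 (SE 0.07), and TP53INP1 had 1.03 (SE 0.14). Of 29 DNA replication genes 10 rose and 6 fell, so that 55.2% passed beside 43.1% of all genes (21.8% higher and 21.3% lower). Their median of 0.04 was -0.087 with equal totals, and 1 was regulated, the cyclin CCNE1, with -2.64 (SE 0.18). Of 18 genes of G2 and mitosis 12 rose and 2 fell, so that 77.8% passed beside the same 43.1% of all genes. Their median of 0.28 was 0.16 with equal totals, and the checkpoint kinase gene BUB1 was regulated with 0.66 (SE 0.06). The part of a change in cycle phase in the values of the 48 genes was not tested.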

How the data were processed

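RNA of MDA-MB-231 cells was sequenced in 3 si-CTRL and 3 si-NEK2 libraries, prepared per the labels with a stranded polyA kit from 1 µg of RNA. The authors deposited a signal for each gene and library: gene reads scaled by DESeq2 size factors, annotated with FAST DB on hg19, replicates kept separate. The submitters' processing notes name STAR 2.4.0, SAMtools, Picard, FastQC and DESeq2. How reads were assigned to genes, and with which strand setting, is not given in the sources used here. The labels and the methods of the study differ on the extraction kit, the harvest time and the read layout.

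Values were whole multiples of 1 read (tolerance 0.01) in 100% of cases, 1 read being worth 0.818 to 1.25 normalized counts, which gave back the reads. R 4.3.3 and limma 3.58.1 (lmFit, eBayes with a trend, no block) were applied to log2(value + 1) of the 18717 genes whose mean reached 10, with Benjamini-Hochberg adjustment over all of them. Fold changes are on this scale, which understates those of low genes. The thresholds for regulated genes, 0.05 for the unadjusted p and 1.5 for the fold change, are those of the study. The fit was tested on simulated counts with few changed genes, raised and lowered in equal number, which does not bear on the choice of scaling. Alternatives changed 1 choice at a time, except that the count tests replaced the log2 values and edgeR also the scaling. They were the pseudocount (0.1 or 5), the filter (none or 50), the scaling (upper quartile, equal total or quantile), eBayes without trend, a block for the replicate number, leaving out 1 library, stricter thresholds (adjusted p, or a fold change of 2), and count tests on the recovered reads with edgeR 4.0.16 (quasi-likelihood with TMM) or DESeq2 1.42.0. Leaving out both rows that are shared with another gene was added after seeing the data.

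The members and lists were chosen with earlier results of these data known. All 48 genes are accounted for, with library values for regulated genes, for subunits of a complex whose partners passed and for up to 3 genes a class, and from other lists up to 4 regulated genes with a mean of at least 50 are named. Overlap of rows was read from the deposited coordinates, promoters from RefSeq (GRCh38.p14) and exon lengths from GENCODE 29.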

Additional observations from a re-analysis of the deposited data

How the results depend on the processing

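NEK2 kept its direction and call in every alternative, with log2 fold changes from -3.42 to -3.19 when 1 library was left out. The count of regulated genes among the 48 was 1, and it was 2 with upper quartile scaling and with equal totals (XRCC3 and FANCE, in 2 classes) and 0 at a fold change of at least 2. With quantile normalization, and without si-CTRL replicate 2 or 3, the 1 regulated gene was FANCL. Without 1 library the count ran from 0 (without si-NEK2 replicate 3) to 2 (without si-NEK2 replicate 1), as did the count of classes with a regulated gene. The 29 genes past the adjusted p ranged from 17 (without si-NEK2 replicate 2) to 32 (without si-CTRL replicate 1), those that rose from 14 to 22 and those that fell from 3 to 10. With equal totals 11 rose and 11 fell, and 3 fell without a trend. The median of 0.15 was 0.084 with upper quartile scaling, 0.022 with equal totals and 0.024 with quantile normalization, and ran from 0.12 to 0.18 without 1 library. The 17 regulated genes of the other lists ranged from 16 to 23 without 1 library. Without the 2 shared rows 27 genes passed the adjusted p, 21 higher and 6 lower. The cause of these shifts was not tested, beyond the smaller number of libraries or genes that an alternative uses.

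Whether libraries of the same replicate number were prepared as pairs is not stated in the labels. The correlations of deviations were -0.091, 0.047 and -0.15 between libraries of the same number, and from -0.12 to 0.18 between those of different numbers. They cannot decide this, because each deviation is taken from the mean of only 3 libraries. With the number as a block, 23 of the 48 genes passed, 19 higher and 4 lower, and XRCC3 remained the 1 regulated gene.

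Of the 29 genes past the adjusted p, 28 kept their direction in all 17 alternatives, and the exception was XRCC5, at -0.0068 with quantile normalization. Directions also turned in genes that did not pass. With equal totals these were BRCA2 (-0.091), BLM (-0.12), EXO1 (-0.13), XRCC6 (-0.048), PRKDC (-0.066), FANCI (-0.094), ATR (-0.11), LIG3 (-0.088) and PARP1 (-0.080). With quantile normalization they were BLM (-0.080), EXO1 (-0.11), XRCC6 (-0.14), PRKDC (-0.014), FANCI (-0.092), ATR (-0.049), LIG3 (-0.032) and PARP1 (-0.10). With upper quartile scaling they were BRCA2 (-0.029), BLM (-0.062), EXO1 (-0.065), PRKDC (-0.0041), FANCI (-0.031), ATR (-0.044), LIG3 (-0.026) and PARP1 (-0.018). In edgeR they were BLM (-0.0074), EXO1 (-0.015) and ATR (-0.0017), and in DESeq2 BLM (-0.0083), EXO1 (-0.016) and ATR (-0.0017). Without 1 library the values ran for BRCA2 from -0.076 to 0.13, BLM from -0.021 to 0.032, EXO1 from -0.054 to 0.10, PRKDC from -0.018 to 0.12, FANCC from -0.069 to 0.047, ATR from -0.11 to 0.088 and LIG3 from -0.029 to 0.14. These genes had at least 217 normalized counts in each library.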
